A study of Mus musculus with 68 samples.

Results

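Prostate samples of 16-week TRAMP mice were compared with prostate samples of 16-week wild-type mice that lack the transgene. The set was chosen by genotype and age from the labels and held 11 of the 68 arrays of the series: 7 arrays of TRAMP+/- animals (codes T8 to T14) and 4 arrays of TRAMP-/- animals (B8, B10, B11 and B13). Both groups had intact Sparc and intact osteopontin (OPN), whose knockout forms other groups of the series. Each array came from an animal with its own code. The p-values of the fit rest on the spread between animals within groups, pooled over 67 arrays of 12 groups (55 residual degrees of freedom), not on these 11 arrays alone.

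TRAMP mice carry the SV40 early region, which encodes the large and small T antigens, under the rat probasin promoter, which is active in androgen-responsive prostate epithelium. Large T antigen binds the retinoblastoma protein family and p53. Binding of the retinoblastoma family frees E2F transcription factors, which drive genes of the G1/S transition and DNA replication, and genes of mitosis are then switched on by B-Myb and FoxM1 at promoters with CHR and CCAAT elements. The model is limited in that it acts through a viral oncogene expressed from a prostate promoter, from puberty on, in mice that are otherwise intact. Samples without the transgene carry the same tissue label as the tumours, tumour histology is not in the labels, and how prostate lobes and neighbouring organs were dissected was not found in the labels. In RNA from whole tissue, fewer cells of a type and less RNA per cell cannot be told apart.

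All values are deposited log2 expression values of Clariom S arrays, 1 per probe set, and differences are TRAMP minus wild type on that log2 scale. Probasin (Pbsn), a secretory protein that marks prostate epithelium, ran from 8.24 to 11.79 over the 11 arrays. On T10 (8.24) and T8 (8.61) it lay below the 95th percentile of the negative control probe sets (9.25), and on the other arrays above it. The transgene was read from 6 control probe sets named by the sequence number of the SV40 genome. They are 2 names, each given for human, mouse and rat, with distinct values. Their mean had its lowest, median and highest values at 6.09, 6.82 and 7.47 on the TRAMP arrays. On wild-type arrays the average was 5.21 (B8), 5.22 (B10), 5.03 (B11) and 5.47 (B13). The groups did not overlap, with 6.82 ± 0.52 (SD, n = 7) against 5.23 ± 0.18 (SD, n = 4), a difference of 1.59 (2-sided exact permutation test, p = 0.00606, the smallest that 330 splits allow), so every array bore out its transgene label. Array quality, as the AUC by which positive exceed negative control probe sets, was 0.739 to 0.762 on wild-type arrays. It was 0.735 to 0.769 on T11 to T14 and lower on T8 (0.706), T9 (0.707) and T10 (0.674).

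Early tumours differed from wild-type prostate in 8 called genes, and Hells, Ccne2, Cdc6, Mki67 and Ube2c among them act in DNA replication, chromatin upkeep or mitosis. Of 22206 probe sets, 8 passed an adjusted p of 0.05 (limma, Benjamini-Hochberg adjustment over all of them), which is 0.036%, with 7 higher (0.0315%) and 1 lower (0.0045%) in TRAMP. At an unadjusted p under 0.05 there were 1679 (7.56%), where 1110 would be due by chance. The median difference over all probe sets was 0.02. In a fit of the 11 arrays alone, 3 were called, of which Olfr167 was 1 of the 8, and Hells had an adjusted p of 0.113 and Ccne2 of 0.118 (limma).

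Hells, a SNF2-family helicase that helps to maintain DNA methylation, had the largest rise. It measured 6.86, 8.30 and 9.17 as the lowest, median and highest TRAMP value and 6.42 (B8), 6.07 (B10), 4.78 (B11) and 6.0 (B13) in wild type. The TRAMP arrays all lay above the wild-type ones, by 2.50 ± 0.31 (SE, adjusted p = 1.26e-06, limma). T10 was the lowest tumour and still above B8, the highest prostate, and B11 was the lowest prostate.

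Ccne2, cyclin E2, which activates CDK2 at the start of S phase, ran at 8.63, 9.43 and 10.37 (lowest, median, highest) in TRAMP. The wild-type values were 7.79 (B8), 7.87 (B10), 6.82 (B11) and 7.60 (B13). It rose by 2.03 ± 0.33 (SE, adjusted p = 0.000653, limma), and again T10 was the lowest tumour and B11 the lowest prostate.

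Cdc6, which loads the MCM helicase onto replication origins, ran at 5.78, 6.25 and 6.90 in TRAMP against 5.51, 4.86, 5.14 and 5.74 in wild type (B8, B10, B11, B13). Its rise of 0.93 ± 0.20 (SE, adjusted p = 0.042, limma) was close to the threshold, and T10 at 5.78 lay barely above B13 at 5.74. T8, at 6.90, stood above the other 6 tumours.

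Of the mitotic genes, Mki67, which encodes the proliferation marker Ki-67 that coats mitotic chromosomes, ran at 6.42, 6.66 and 7.32 in TRAMP and at 5.37, 5.24, 5.57 and 5.84 in wild type. Ube2c, the ubiquitin-conjugating enzyme that works with the anaphase-promoting complex, ran at 7.06, 7.73 and 8.54 against 6.61, 6.46, 6.58 and 6.13. Mki67 rose by 1.35 ± 0.26 and Ube2c by 1.32 ± 0.26 (SE, adjusted p = 0.0142 for each, limma). Neither gene had a tumour within the wild-type range. For Mki67 the tumours T8, T11 and T12 lay above 7 and the other 4 between 6.42 and 6.66.

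Casp2, an initiator caspase, rose by 0.71 ± 0.15 (SE, adjusted p = 0.0411, limma), the smallest change of the 8. Its TRAMP values were 7.44, 7.78 and 8.15 (lowest, median, highest) and its wild-type values 7.11, 7.20, 6.92 and 7.05. Both groups were tight, with an SD of 0.24 in TRAMP and 0.12 in wild type.

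The second largest rise belonged to a probe set named for the olfactory receptor gene Olfr167, which lay outside the rule for naming genes and was added after its values were seen. It measured 7.57, 8.21 and 8.63 in TRAMP against 5.84, 6.09, 5.59 and 5.71 in wild type, higher by 2.27 ± 0.33 (SE, adjusted p = 3.2e-05, limma). Which transcript its probes detect in prostate was not tested.

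Gpcpd1, an enzyme that splits glycerophosphocholine, was the only called fall. TRAMP arrays had 4.86, 5.84 and 6.20 and wild-type arrays 6.45, 6.53, 7.60 and 6.89, so that the tumours lay below every prostate. The difference was -1.21 ± 0.24 (SE, adjusted p = 0.0172, limma). T8 and T9 had the lowest values (4.86 and 5.22), and without T8, T9 and T10 the difference was -0.945 (adjusted p = 0.343, limma). Without B11 alone, the highest prostate at 7.60, it was -0.962 (adjusted p = 0.514, limma).

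**Figure D1:**
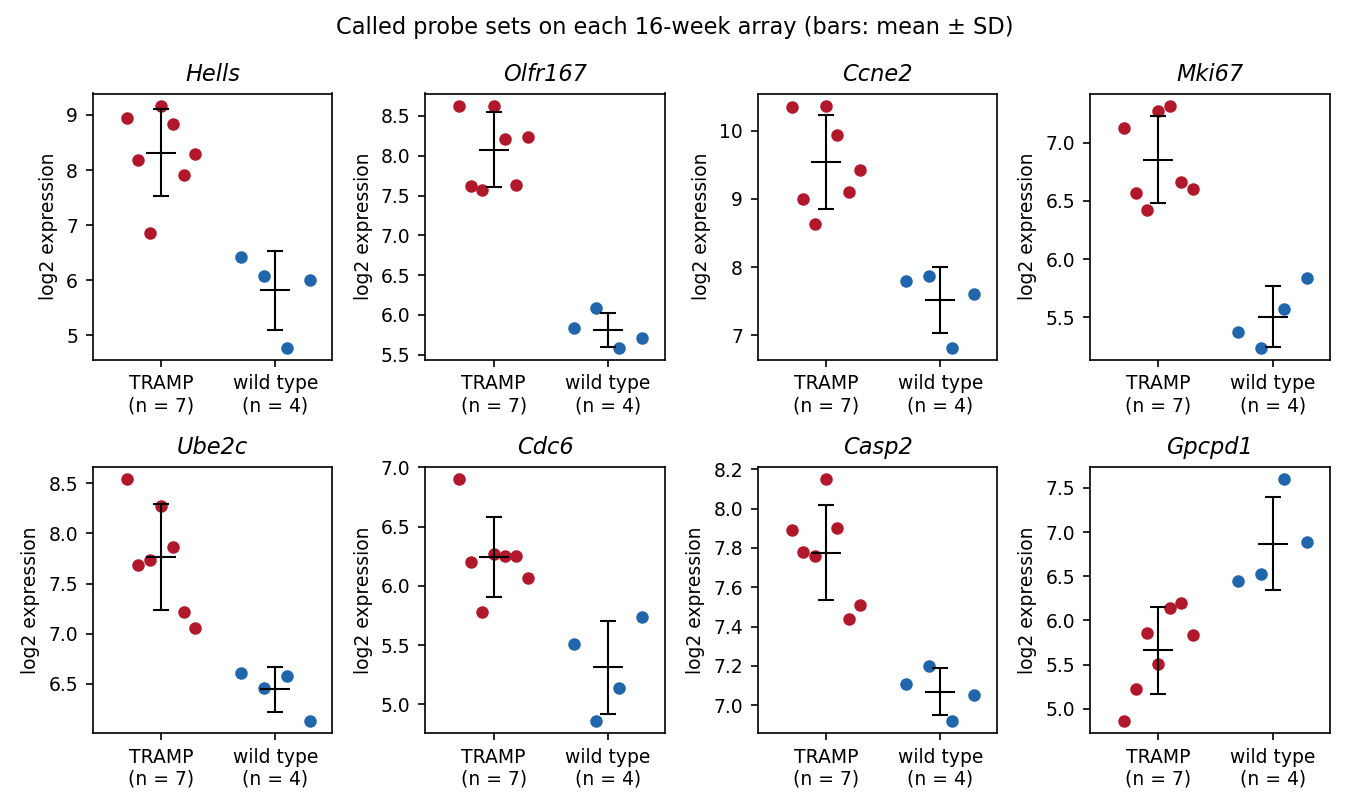
Log2 expression (vertical axes, scaled separately) of the 8 called probe sets on each 16-week array, with TRAMP in red (n = 7), wild type in blue (n = 4) and bars for mean ± SD. In every panel the groups do not overlap, and TRAMP is lower for Gpcpd1 only.

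All 8 called probe sets had group ranges that did not meet, as did 0.572% of all probe sets with TRAMP above and 0.32% with TRAMP below. These log2 sizes are not exact folds, because the negative control probe sets set no clear background (median 5.37, 95th percentile 9.25). The wild-type mean of Hells exceeded 57.7% of negative control values and its TRAMP mean 89.1%. For Cdc6 the shares were 49.3% and 63.9%, and for Ccne2 82.0% and 96.0%.

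The promoters of called genes were read for elements known from cell cycle genes, the E2F element of G1/S genes and the CHR and CCAAT elements of G2/M genes. Promoter windows of 300 bases, 250 before to 50 after the start, were taken from RefSeq (GRCm38.p6), where 5 of the 8 called genes were found. The first 3 are the called genes with an E2F element, searched as TTTCCCGC or TTTGGCGC on both strands and printed in capitals. Hells lies at chr19:38930740-38931039, plus strand, Cdc6 at chr11:98907901-98908200, plus strand and Casp2 at chr6:42264735-42265034, plus strand.
Hells: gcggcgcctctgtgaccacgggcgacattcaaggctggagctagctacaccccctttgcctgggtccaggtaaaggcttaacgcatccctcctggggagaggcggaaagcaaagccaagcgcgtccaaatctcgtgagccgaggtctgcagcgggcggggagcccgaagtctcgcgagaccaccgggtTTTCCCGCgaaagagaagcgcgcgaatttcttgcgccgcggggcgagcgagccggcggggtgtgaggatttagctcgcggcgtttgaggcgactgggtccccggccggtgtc
Cdc6: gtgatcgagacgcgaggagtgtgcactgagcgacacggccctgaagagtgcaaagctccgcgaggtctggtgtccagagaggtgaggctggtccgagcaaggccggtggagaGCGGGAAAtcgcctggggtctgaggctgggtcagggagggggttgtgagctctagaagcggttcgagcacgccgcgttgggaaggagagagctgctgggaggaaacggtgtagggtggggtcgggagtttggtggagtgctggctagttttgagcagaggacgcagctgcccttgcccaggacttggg
Casp2: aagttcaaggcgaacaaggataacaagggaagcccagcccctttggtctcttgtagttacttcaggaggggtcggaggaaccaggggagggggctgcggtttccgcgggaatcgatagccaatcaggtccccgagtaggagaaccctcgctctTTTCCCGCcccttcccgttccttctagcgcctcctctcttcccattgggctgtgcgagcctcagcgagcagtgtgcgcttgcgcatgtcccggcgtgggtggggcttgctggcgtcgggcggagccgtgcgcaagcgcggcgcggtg

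In Hells the element TTTCCCGC began 62 bases before the start and in Casp2 97 bases before it. In Cdc6 it lay on the opposite strand, 138 bases before the start. The promoters of Mki67 (chr7:135716330-135716629, minus strand) and Ube2c (chr2:164769679-164769978, plus strand) are shown for the elements of late cell cycle genes, with TTTGAA (the CHR core) and CCAAT, on either strand, in capitals.
Mki67: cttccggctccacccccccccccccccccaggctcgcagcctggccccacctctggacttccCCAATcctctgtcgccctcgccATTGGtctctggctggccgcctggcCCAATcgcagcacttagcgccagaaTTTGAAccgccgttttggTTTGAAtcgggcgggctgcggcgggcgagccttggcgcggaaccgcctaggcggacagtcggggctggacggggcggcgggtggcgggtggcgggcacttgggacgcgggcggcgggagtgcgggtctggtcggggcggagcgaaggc
Ube2c: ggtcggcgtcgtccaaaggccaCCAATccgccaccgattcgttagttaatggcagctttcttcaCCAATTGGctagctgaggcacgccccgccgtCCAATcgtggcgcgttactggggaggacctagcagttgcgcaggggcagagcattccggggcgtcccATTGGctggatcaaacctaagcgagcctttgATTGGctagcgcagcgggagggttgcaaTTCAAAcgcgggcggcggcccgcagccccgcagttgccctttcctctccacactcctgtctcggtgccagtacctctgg

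Mki67 held TTTGAA 116 and 98 bases before the start and 3 copies of CCAAT, while Ube2c held TTTGAA on the opposite strand 29 bases before the start and 6 copies of CCAAT, of which 1 pair overlaps. Neither had the E2F element, and the Hells, Cdc6 and Casp2 windows had no TTTGAA. The Casp2 window did hold CCAAT, left in lower case above, and those of Hells and Cdc6 did not. Over the lists described next, the E2F element was in 9 of 32 G1/S genes (28.1%), 0 of 33 G2/M genes (0%) and 1.8% of all 27025 genes with a window. The CHR core was in 9.38% of G1/S genes, 72.7% of G2/M genes and 20.2% of all genes, and CCAAT in 62.5%, 72.7% and 41.1%. These are matches of letters in a window, not measured binding, and the G1/S list was drawn up as genes known to be E2F-regulated. The G2/M list likewise holds genes of mitosis, the class from which the CHR and CCAAT elements are known. The shares of both lists are therefore a description and not separate support.

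Most genes of DNA replication had positive differences that did not pass the test. Of 38 measured G1/S genes, 2 were called higher (Ccne2 and Cdc6), 18 had an unadjusted p under 0.05, all of them higher, and 36 had a positive difference, as did 55.4% of all probe sets. Over all probe sets 4.13% had an unadjusted p under 0.05 and were higher. The median difference of the list was 0.33. In 8 of the 38 genes all tumours lay above all prostates, as in 0.572% of all probe sets.

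Pcna, the sliding clamp of DNA polymerases, came closest to being called without passing. It ran at 7.14, 7.65 and 8.48 in TRAMP and at 6.46, 6.69, 6.03 and 6.93 in wild type, a difference of 1.27 ± 0.28 (SE, adjusted p = 0.0612, limma). Its group ranges did not meet.

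Among the subunits of the MCM replicative helicase, none was called, and the measured ones from Mcm2 to Mcm6 differed by 0.48, 0.55, 0.73, 0.53 and 0.76 in order (adjusted p from 0.198 to 0.495, limma). Mcm6 ran from 6.61 to 7.59 in TRAMP, above the wild-type values of 6.54, 6.03, 6.43 and 6.37. Mcm2 overlapped between the groups, since T13 had 7.30 and B8 7.32, and T8 stood alone at 8.70. The DNA ligase of lagging-strand synthesis, Lig1, differed by 0.69 ± 0.19 (SE, adjusted p = 0.208, limma). Cyclin E1 (Ccne1) differed by 0.69 ± 0.24 (SE, adjusted p = 0.46, limma), a smaller value than that of cyclin E2, and its ranges overlapped.

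Mitotic genes also had positive differences throughout. Of 39 measured G2/M genes, 2 were called higher (Mki67 and Ube2c), 18 had an unadjusted p under 0.05 and all 39 had a positive difference, with a median of 0.25. Over all probe sets 4.13% were higher at that unadjusted p and 55.4% had a positive difference. Pbk, a mitotic kinase, had the largest difference of the list at 1.62 ± 0.45 (SE, adjusted p = 0.222, limma). It ran at 8.0, 8.68 and 9.98 in TRAMP against 7.22, 8.09, 6.73 and 6.77, where B10 reached into the tumour range. The spindle protein Ckap2l differed by 0.90 ± 0.26 (SE, adjusted p = 0.27, limma), and Plk1, the kinase of mitotic entry, by 0.69 ± 0.19 (SE, adjusted p = 0.214, limma). In both the ranges did not meet.

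Top2a, the topoisomerase that separates sister chromatids and a usual marker of dividing cells, had a difference near 0. It ran at 5.83, 6.16 and 6.72 in TRAMP and at 6.08, 6.38, 6.03 and 6.04 in wild type, a difference of 0.09 ± 0.17 (SE, adjusted p = 0.915, limma). This effect differed by 0.09 ± 0.23 from that in the late mice compared below. It differed by 0.01 ± 0.22 from that in SPARC-null and by -0.16 ± 0.23 from that in OPN-null mice (SE). The small value was thus not shown to be particular to early wild-type mice. Cdk1, which drives entry into mitosis, differed by 0.60 ± 0.19 (SE, adjusted p = 0.383, limma) at levels of 3.66 to 5.14, where 36.5% of negative control values lay below its TRAMP mean.

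**Figure D2:**
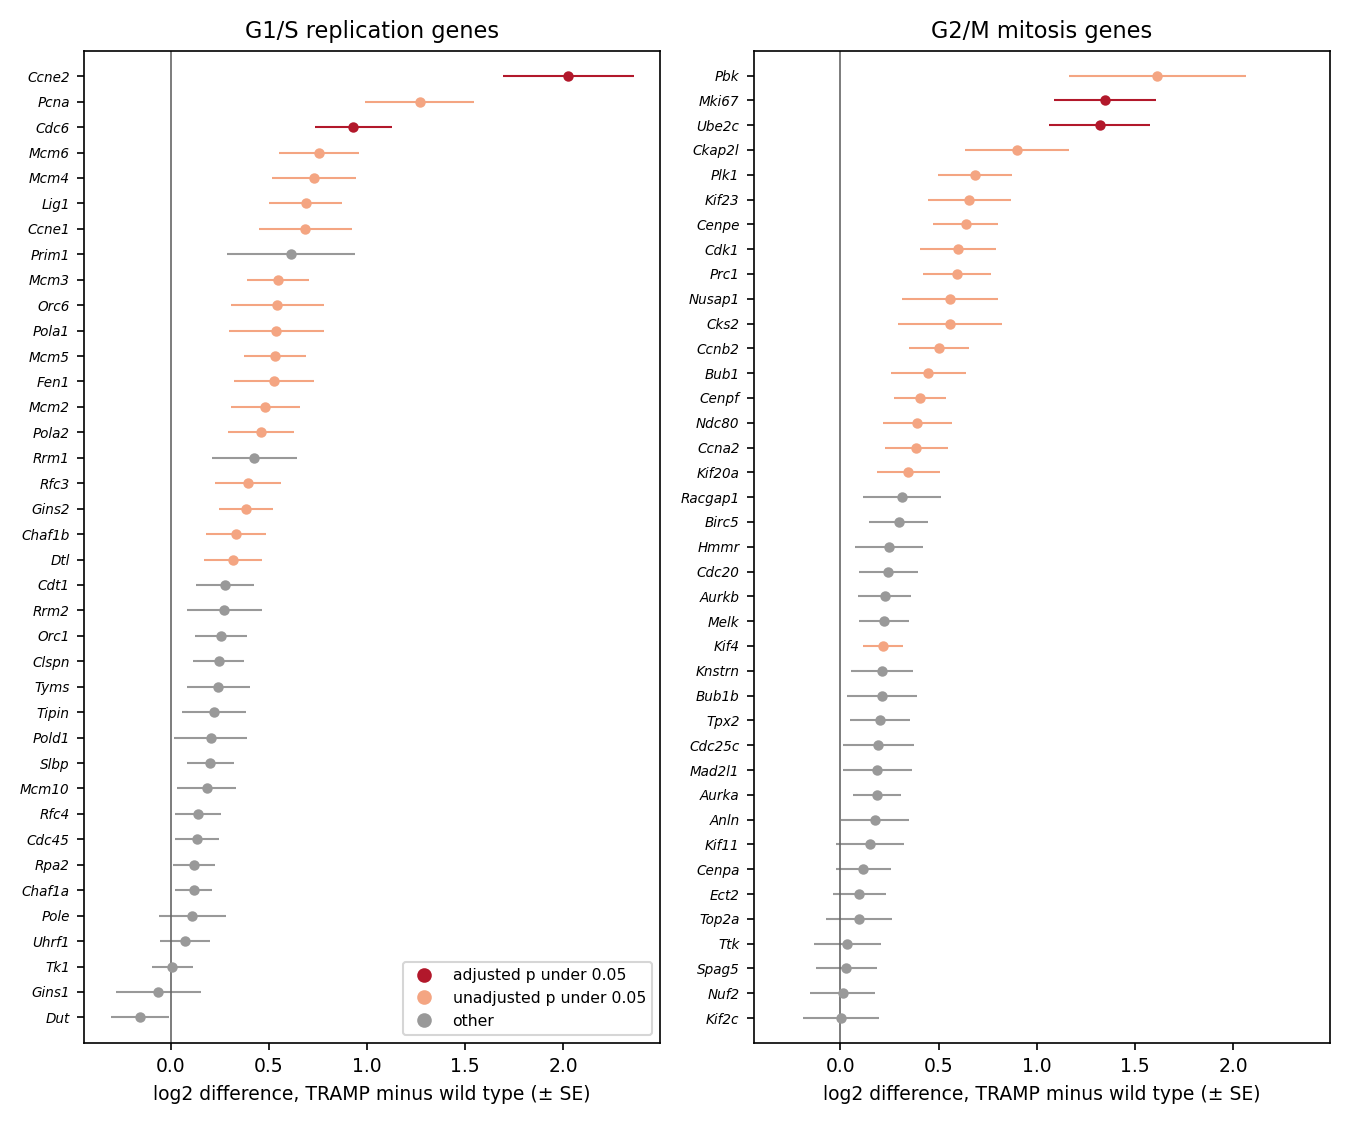
Log2 difference between TRAMP and wild type (horizontal axis, bars ± SE) for each measured G1/S gene (left, 38 genes) and G2/M gene (right, 39 genes). Dark red marks an adjusted p under 0.05, pale red an unadjusted p under 0.05, and nearly all points lie right of 0.

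The DNA repair and checkpoint list had 0 of 21 genes called, and 10 with an unadjusted p under 0.05, all higher (4.13% of all probe sets were). Brca2, which acts in homologous recombination, differed by 0.86 ± 0.21 (SE, adjusted p = 0.14, limma) and ran from 7.36 to 8.46 in TRAMP above 6.98, 7.12, 6.91 and 7.28 in wild type. The exonuclease Exo1 differed by 0.54 ± 0.14 (SE, adjusted p = 0.16, limma), and its ranges did not meet either. Its values, 4.35 to 4.91 in TRAMP and 3.94 to 4.16 in wild type, all lay below the negative control median of 5.37.

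Hells was the 1 gene called among 17 genes of chromatin silencing and assembly, where 5 were higher at an unadjusted p under 0.05 (4.13% of all probe sets were). Asf1b, a histone chaperone of replicating chromatin, had 9.12, 9.71 and 10.73 in TRAMP against 8.69, 8.60, 8.41 and 8.31 in wild type. The groups did not overlap, with a difference of 1.44 ± 0.33 (SE, adjusted p = 0.101, limma). Ezh2, the methyltransferase of Polycomb complex 2, differed by 0.67 ± 0.19 (SE, adjusted p = 0.246, limma), and T13 (8.78) lay among the wild-type values of 8.57 to 9.02. The maintenance DNA methyltransferase Dnmt1 differed by 0.43 ± 0.12 (SE, adjusted p = 0.27, limma).

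Genes that encode E2F factors and their partners were next, whose binding to these promoters was not measured. Foxm1 was not analysed here. Of 16 E2F and DREAM factors 0 were called and 2 were higher at an unadjusted p under 0.05 (4.13% of all probe sets were), with a median difference of 0.16. E2f8, an atypical repressor E2F that is itself a cell cycle gene, differed by 0.71 ± 0.24 (SE, adjusted p = 0.435, limma) with ranges that did not meet. E2f1, the activator E2F, had 4.65, 5.76 and 6.08 in TRAMP and 5.38, 5.45, 5.76 and 5.29 in wild type, a difference of 0.23 ± 0.23 (SE, adjusted p = 0.838, limma).

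Among 15 genes of the retinoblastoma family, D-type cyclins, their kinases and CDK inhibitors, 0 were called. Rb1, the main target of large T antigen, differed by 0.03 ± 0.11 (SE, adjusted p = 0.963, limma), with wild-type values of 6.62 to 6.68 inside the TRAMP range of 6.51 to 6.96. Cdkn2a, which encodes p16 and p19ARF, differed by 0.09 ± 0.19 (SE, adjusted p = 0.932, limma). The kinase Cdk6, a partner of D-type cyclins, had 5.46, 6.32 and 6.87 in TRAMP and 7.09, 7.23, 7.29 and 7.11 in wild type. The tumours lay below every prostate, by -0.82 ± 0.20 (SE), without being called (adjusted p = 0.14, limma). Its lowest tumour value was that of T10.

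Of 23 p53 targets and partners, 0 were called and 0 had an unadjusted p under 0.05 in either direction, with a median difference of -0.10. Cdkn1a, the CDK inhibitor p21, differed by 0.07 ± 0.15 (SE, adjusted p = 0.94, limma), and Mdm2, the ubiquitin ligase of p53, by -0.16 ± 0.15 (SE, adjusted p = 0.83, limma). The genes Trp53 and Ccnd1 were not analysed here.

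**Figure D3:**
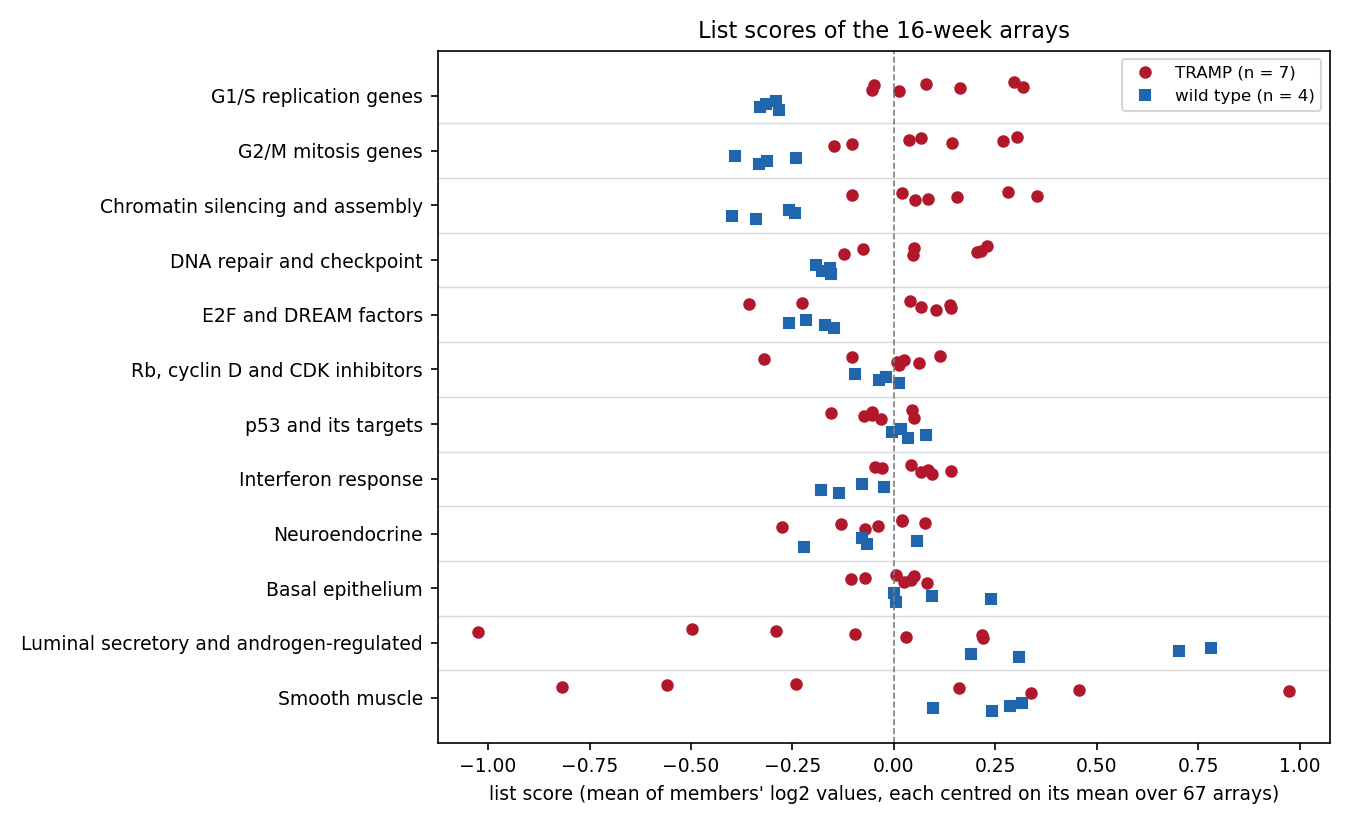
Score of 12 gene lists on each array, as the mean of the members' log2 values after each was centred on its mean over 67 arrays (horizontal axis), with TRAMP in red (n = 7) and wild type in blue (n = 4). The 4 wild-type arrays lie left of all tumours for the G1/S, G2/M, chromatin and DNA repair lists, and the groups overlap for the others.

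Scores per array show how far the tumours differed among themselves. The G1/S score was 0.32 in T11, 0.30 in T8, 0.16 in T12, 0.08 in T9, 0.01 in T14 and -0.05 in both T10 and T13. All wild-type arrays lay lower, from -0.33 to -0.28, and spread less than the tumours. The G2/M score ran from -0.15 to 0.30 in TRAMP and from -0.39 to -0.24 in wild type, with T14 lowest and T8 highest.

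Tumours with more SV40 signal had higher G1/S scores. Over the 7 tumours Pearson r was 0.887 (exact permutation p = 0.0123, adjusted p = 0.0492) and Spearman rho 0.929 (exact permutation p = 0.00675, adjusted p = 0.027), adjusted over 4 relations. T11 was highest in both measures (7.47 and 0.32), and T13 lowest in both (6.09 and -0.05). Without T11 and T13, the pair farthest from the median SV40 signal, r was 0.791 over 5 tumours. For the G2/M score r was 0.731 (exact permutation p = 0.071, adjusted p = 0.142) and rho 0.679 (exact permutation p = 0.11, adjusted p = 0.219), and r fell to 0.506 without that pair.

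Array quality was set beside both measures. The AUC had r = -0.029 (exact permutation p = 0.946, adjusted p = 0.946) and rho = -0.286 with the G1/S score, and r = 0.0529 (exact permutation p = 0.91, adjusted p = 0.946) and rho = -0.0714 with SV40 signal. Without T10 and T13, the farthest in AUC, these r were -0.24 and 0.397. The share of epithelium in each sample was not measured, so its part in the relation was not tested.

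Several secretory products of the prostate were far lower on the tumour arrays, and none of them was called. Of 24 luminal secretory and androgen-regulated genes, 0 were called, 4 were lower at an unadjusted p under 0.05 (3.44% of all probe sets were) and 19 had a negative difference, with a median of -0.30. The androgen-dependent spermine-binding protein Sbp had 7.10, 7.76 and 9.25 in TRAMP against 11.06, 11.25, 10.48 and 10.92 in wild type. Its homologue Sbpl had 6.31, 6.83 and 7.64 against 10.53, 11.31, 8.67 and 9.71.

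Neither range met its counterpart, and the differences were -2.85 ± 0.69 for Sbp (SE, adjusted p = 0.14, limma) and -3.12 ± 0.72 for Sbpl (SE, adjusted p = 0.101, limma). In a fit of these 11 arrays alone, which used no weights, both Sbp and Sbpl were called (adjusted p = 0.0496 for Sbp and 0.0419 for Sbpl, limma). Why the 2 fits differ for these genes was not tested. The protease inhibitor Spink5 ran from 5.99 to 7.47 in TRAMP below 8.61, 9.83, 8.24 and 7.80 in wild type, by -2.0 ± 0.64 (SE, adjusted p = 0.361, limma). Spink1, a trypsin inhibitor secreted into seminal fluid, differed by -3.19 ± 1.11 (SE, adjusted p = 0.46, limma) and spanned 6.85 to 11.75 in the tumours, where T13 and T12 reached 11.75 and 10.78.

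Probasin itself, whose rat promoter drives the transgene, had 8.24, 10.72 and 11.77 in TRAMP and 11.63, 11.14, 10.30 and 11.79 in wild type. The difference of -1.03 ± 0.56 (SE, adjusted p = 0.686, limma) came with low values on T10 (8.24), T8 (8.61) and T9 (9.89), while the other 4 tumours lay from 10.72 to 11.77. Those 3 arrays are also the ones with the lowest AUC, and their luminal secretory scores were -1.02, -0.50 and -0.29 against -0.10 to 0.22 on the other tumours and 0.19 to 0.78 in wild type. With the AUC as a covariate the Pbsn difference was -0.55 (adjusted p = 0.926, limma). In that fit Sbp and Sbpl were called, with differences of -3.01 (adjusted p = 0.0434) and -3.27 (adjusted p = 0.0371, limma). They were also called with 1 weight per array (adjusted p = 0.0138 and 0.00628, limma), and not without the arrays of an AUC under 0.7 (adjusted p = 0.0687 and 0.0534, limma). Neither gene was called with no weights, a filter on low signal or centring on the array median. The same held without any 1 array, and without T8, T9 and T10 together. Adjusted p in these fits ran from 0.0621 to 0.45 (limma).

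**Figure D4:**
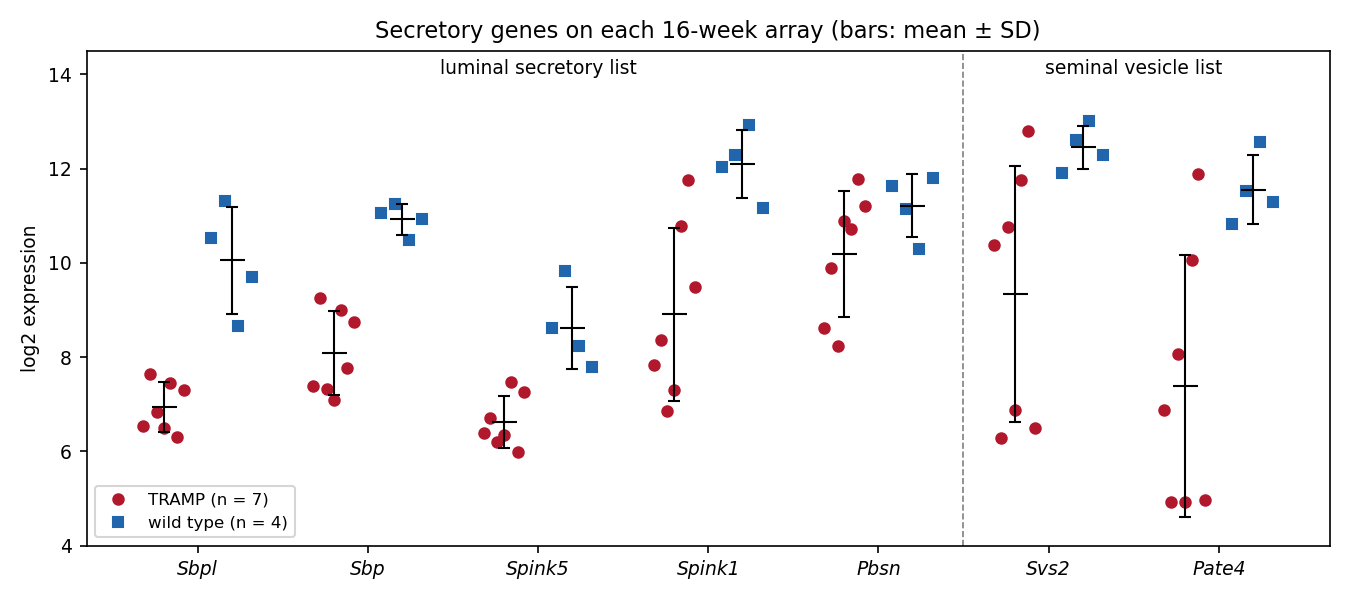
Log2 expression (vertical axis) of 5 luminal secretory genes and 2 seminal vesicle genes on each array, with TRAMP as red circles (n = 7), wild type as blue squares (n = 4) and bars for mean ± SD. The groups are apart for Sbpl, Sbp and Spink5 and overlap for Spink1, Pbsn, Svs2 and Pate4.

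Genes of the seminal vesicle, which adjoins the prostate, differed widely between arrays of both groups. All 10 measured markers had a negative difference (median -1.34), 0 were called and 2 were lower at an unadjusted p under 0.05 (3.44% of all probe sets were). The score of the list, the mean of its members' centred log2 values, was 4.66 on T13, 1.85 on T8, 0.15 on T10, -0.09 on T12 and -1.78, -1.93 and -1.97 on T9, T11 and T14. Wild-type arrays had 0.32 (B8), 0.67 (B10), 5.04 (B11) and 1.48 (B13).

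The seminal vesicle secretory protein Svs2 ran at 6.28, 10.38 and 12.79 in TRAMP and at 11.91 (B8), 12.60 (B10) and 12.28 (B13) in wild type, with B11 higher still, a difference of -3.11 ± 1.44 (SE, adjusted p = 0.638, limma). T9, T11 and T14 were the tumours under 7. With the seminal vesicle score as a covariate, 8 probe sets were called, of which 6 were among those above, and Sbp and Sbpl joined as lower (difference -3.23 with adjusted p = 0.0246, and -3.53 with adjusted p = 0.0145, limma). Casp2 (adjusted p = 0.0765) and Cdc6 (adjusted p = 0.0886) were no longer called in that fit.

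Markers of other epithelial states differed in single genes. Lcn2, lipocalin 2, had 5.98, 6.57 and 7.45 in TRAMP below 7.83, 8.08, 7.73 and 7.92 in wild type, by -1.31 ± 0.41 (SE, adjusted p = 0.322, limma). The keratin Krt4, found in proximal luminal cells, differed by 0.77 ± 0.22 (SE, adjusted p = 0.234, limma) with overlapping ranges. In the list of luminal progenitor and proximal duct genes that holds both, 0 of 11 were called. Basal epithelial genes (0 of 12 called, median -0.02) had no member with an unadjusted p under 0.05, and neither did 16 genes of epithelial adhesion (0 called, median -0.03).

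Neuroendocrine genes, which mark the aggressive tumours known in older TRAMP mice, had no called member. Of 22 measured, 0 were called and 11 lay on each side of 0. Chromogranin A (Chga) had 5.51, 6.11 and 6.39 in TRAMP and 6.26, 6.14, 6.30 and 6.06 in wild type, a difference of -0.20 ± 0.17 (SE, adjusted p = 0.804, limma). Synaptophysin (Syp) differed by -0.08 ± 0.16 (SE, adjusted p = 0.932, limma). No tumour stood out with a high neuroendocrine score, the highest being 0.08 on T10 against 0.06 on B10.

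Stromal and immune lists held no called gene either, and 29 of the 32 lists had none in all. Smooth muscle genes ran from -0.82 (T10) to 0.97 (T13) in score among tumours and from 0.10 to 0.31 in wild type. Among 23 interferon response genes 5 were higher at an unadjusted p under 0.05, where 4.13% of all probe sets were. Usp18, a negative regulator of interferon signalling, differed by 0.64 ± 0.21 (SE, adjusted p = 0.383, limma). The collagen-binding matrix protein gene Sparc, deleted in other mice of the series, differed by -0.21 ± 0.19 (SE, adjusted p = 0.818, limma).

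The same contrast in 3 other sets of animals, which share no array with this one, asked how far the 8 genes recur. The differences thus rest on separate arrays. Their p-values do not, because every set was tested in the same fit, with the error of each gene pooled over all groups. Counts of shared calls are therefore not independent of the calls made here. The sets were late wild-type mice (7 TRAMP of 24 to 25 weeks, 6 without the transgene of 24 weeks), early SPARC-null mice (6 of 18 to 19 weeks, 7 of 16 to 18 weeks) and early OPN-null mice (6 and 5, all of 16 to 17 weeks). Late mice had 140 probe sets called (0.63%), early SPARC-null mice 558 (2.51%) and early OPN-null mice 21 (0.0946%). Of the 8 genes, 7 were called in the same direction in late mice (87.5% of the 8 and 5% of the 140). The count was again 7 in SPARC-null mice (87.5%, and 1.25% of the 558) and 5 in OPN-null mice (62.5%, and 23.8% of the 21).

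Hells, Ccne2, Mki67, Ube2c and Olfr167 rose in all 4 comparisons. Hells rose by 2.96 in late, 2.58 in SPARC-null and 2.81 in OPN-null mice (adjusted p = 2.77e-11, 1.82e-09 and 5.05e-09, limma). Ccne2 rose by 2.57, 2.76 and 2.20 (adjusted p = 2.47e-08, 1.82e-09 and 1.88e-05, limma). Cdc6 and Casp2 rose in late and SPARC-null mice and missed the threshold in OPN-null mice, where they differed by 0.57 and 0.40 (adjusted p = 0.505 and 0.608, limma).

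Gpcpd1 was called in none of the 3, with -0.48 in late (adjusted p = 0.471), -0.42 in SPARC-null (adjusted p = 0.293) and 0.13 in OPN-null mice (adjusted p = 1, limma). Its tumour means in the 4 sets were 5.66, 5.85, 5.42 and 5.73, whereas its means without the transgene were 6.87 in early wild type and 6.33, 5.83 and 5.6 in the others. The difference of its effect between wild-type and OPN-null mice was -1.33 ± 0.33 (SE, adjusted p = 0.868, limma), which does not pass over all probe sets.

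Many cell cycle genes that missed the threshold here were called in the other sets. G1/S genes called higher numbered 13 in late, 18 in SPARC-null and 3 in OPN-null mice, against 2 here, out of 38. G2/M genes called higher numbered 13, 14 and 4 out of 39, against 2 here, where the share of all probe sets called higher was 0.612%, 1.46% and 0.0946%. Pcna rose by 1.73 in late and 1.26 in SPARC-null mice (adjusted p = 5.3e-06 and 0.00117, limma), next to 1.27 here, and differed by 0.96 in OPN-null mice, where it was not called (adjusted p = 0.226, limma). Asf1b rose by 2.30, 2.12 and 2.29 (adjusted p = 3.89e-07, 3.72e-06 and 1.22e-05, limma) and Pbk by 2.67, 2.60 and 3.05 (adjusted p = 1.42e-05, 2.46e-05 and 1.22e-05, limma), next to 1.44 and 1.62 here.

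Whether the transgene effect itself differed was tested as a difference between effects, and 0 of 22206 probe sets (0%) passed in each of the 3 tests with limma. At an unadjusted p under 0.05 there were 1095 against late (4.93%), 825 against SPARC-null (3.72%) and 986 against OPN-null mice (4.44%), and the smallest adjusted p was 0.852, 0.221 and 0.868. For Pbk the early effect was smaller than the late one by -1.05 ± 0.60 (SE, adjusted p = 0.852, limma) and for Asf1b by -0.87 ± 0.44 (SE, adjusted p = 0.852, limma). With array quality as a covariate, 4 probe sets passed against SPARC-null mice and 1 against OPN-null mice, and 0 against late mice.

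Sbp was not called in any of the other sets. It differed by -1.37 in late, -0.12 in SPARC-null and -1.03 in OPN-null mice, with adjusted p from 0.478 to 0.978 (limma). The mice without the transgene spread widely in those sets, from 7.33 to 11.22 in late, 6.63 to 11.09 in SPARC-null and 7.64 to 11.07 in OPN-null animals, whereas the 4 early wild-type arrays lay between 10.48 and 11.25. The difference in the effect on Sbp between wild-type and SPARC-null mice was -2.73 ± 0.91 (SE, adjusted p = 1, limma).

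**Figure D5:**
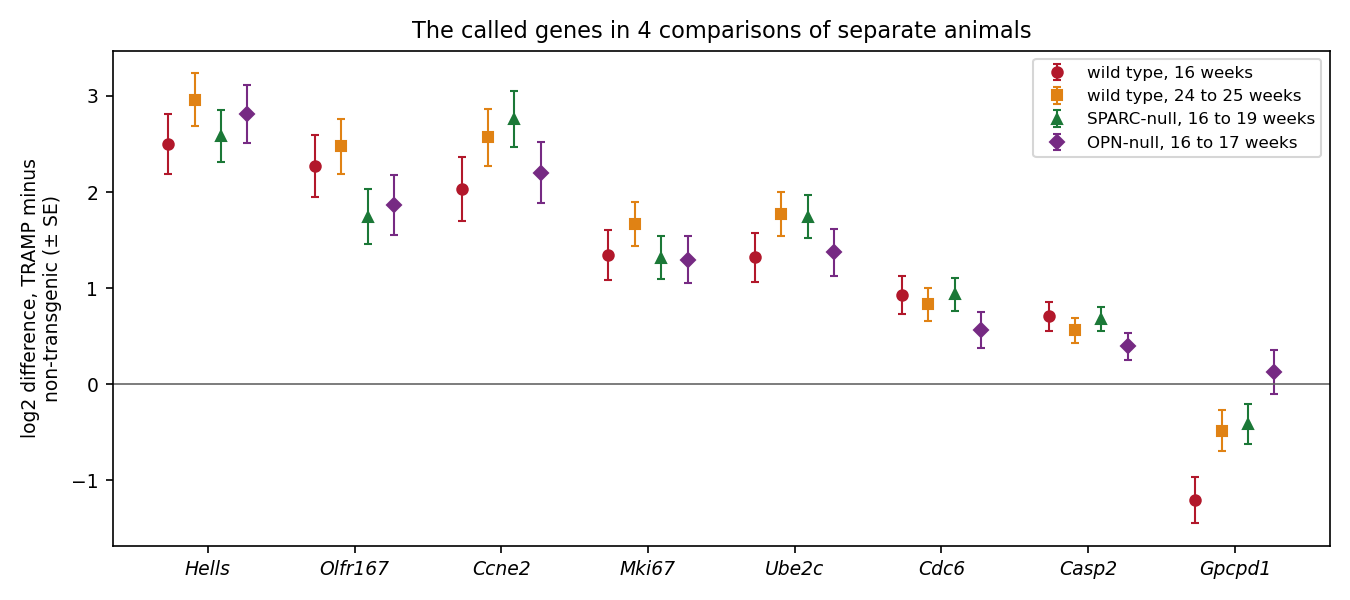
Log2 difference between TRAMP and non-transgenic mice (vertical axis, bars ± SE) of the 8 called genes in early wild-type, late wild-type, early SPARC-null and early OPN-null mice, which share no arrays. The SE of all sets come from the same fit, with a pooled error per gene. The 7 genes that rose in early wild-type mice lie above 0 in all 4 sets, and Gpcpd1 is lower in early wild-type mice with OPN-null mice at 0.13.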

How the data were processed

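RNA of 68 mouse samples was hybridised to Clariom S arrays. Per the submitters' processing notes the authors made the deposited log2 expression values with RMA in oligo (versions not given in the sources used here), which includes quantile normalization between arrays. 0 columns were left unused. Of 29129 probe sets, 6923 controls stayed out of tests, and 19572 of the other 22206 had 1 gene symbol and matched RefSeq. For 55 genes with several probe sets the one with the highest mean was used.

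One mean per group was fitted over 67 arrays with limma 3.58.1 in R 4.3.3 (lmFit, eBayes, 2-sided moderated tests, weights of 1.11 for transgenic and 0.870 for other arrays from arrayWeights). Array O12, whose genotype label and code conflict, was left out. P-values were adjusted by Benjamini-Hochberg over 22206 probe sets, and an adjusted p under 0.05 was called. SV40 signal and correlations were tested by exact permutation (scipy 1.17.1). The fit was also run on simulated data, with independent normal noise around a common mean per probe set. Such data hold no differences in tissue mixture or array quality, so the simulation does not cover them. The number of arrays limits precision, and 0 pairs of arrays held identical values. The array's genome build was not found in the labels, and coordinates are those of the RefSeq windows.

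Members and the 32 gene lists, with 519 of 561 entries measured, were chosen with earlier results of these data known. Named were 16 set genes, the 12 largest called rises and falls with an established name, and up to 4 called members per list. Every other gene was named after its values were seen.

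Alternatives were no weights or 1 weight per array, other sets of arrays, array quality or seminal vesicle score as a covariate, a filter on low signal, centring on the array median, and leaving out each array.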

Additional observations from a re-analysis of the deposited data

Results flagged for a closer look

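In 106 checks for a single array standing apart from its group, 3 arrays did so, and chance flags about 1 in 20 groups. The E2f1 value of T10 was 4.65, while the other tumours had 5.74 to 6.08, and T10 was also the array with the lowest AUC (0.674). The luminal identity score of B11 was 0.327, while the other wild-type arrays had -0.0543 to -0.0127, and B11 also had the highest seminal vesicle score of its group (5.04). The Top2a value of B10 was 6.38, while the other wild-type arrays had 6.03 to 6.08.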

How the results depend on the processing

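The 8 calls became 150 (111 higher, 39 lower) with 1 weight per array, 60 (51, 9) without T10 and other arrays with an AUC under 0.7, 30 (26, 4) with array quality as a covariate, 3 (1, 2) in a fit of the 2 groups alone, and 4 (4, 0) without T8, T9 and T10, an alternative chosen after seeing the data. Leaving out 1 array gave 3 (without T11) to 45 calls (without T13, 23 higher and 22 lower), with 4 without T8, B8, B10 or B11 and 5 without T9 or B13. Olfr167 was called in 20 of 20 alternatives, Hells and Ccne2 in 19 (not in the 2 groups alone, with adjusted p = 0.113 and 0.118), Mki67 in 15, Gpcpd1 in 13, Ube2c in 12, Cdc6 in 9 and Casp2 in 8, and no difference of these 8 genes changed sign. Highest adjusted p-values (limma) were 0.00295 for Olfr167, 0.17 for Mki67, 0.514 for Gpcpd1, 0.25 for Ube2c and 0.444 for Cdc6 and Casp2. Single arrays whose absence ended a call were T11, B8, B10 and B11 for Mki67 (adjusted p = 0.052 to 0.17), and those and T8 and B13 for Ube2c (0.052 to 0.128). They were T8, T9, T11, B11 and B13 for Gpcpd1 (0.052 to 0.514), T8, T9, T11, T12, B8, B10 and B11 for Cdc6 (0.0615 to 0.444), and all arrays but T13 and T14 for Casp2 (0.0506 to 0.444). Uncalled differences near 0 changed sign for Rb1 (-0.0019 without T8, and -0.0169 to 0.0580 over arrays left out), Cdkn1a (-0.0116 to 0.212), Mdm2 (0.0306 without T8, T9 and T10) and Syp (-0.181 to 0.0099). Of the tests of a difference between effects, array quality as a covariate gave 4 calls against SPARC-null mice (1 higher, 3 lower) and 1 against OPN-null mice. G1/S and G2/M genes called ran from 0 to 12 and 0 to 9. The causes were not tested. SV40 differences and the correlation with the G1/S score kept their direction in the alternatives run. No paired analysis was possible because replicate codes are animal codes and no code is shared between the groups.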

Other observations

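Single tumours carried high values that the group comparison does not show, chosen here after their values were seen. Mrc1, the mannose receptor of tissue macrophages, was 11.08 on T9 and 12.12 on T10 and 6.37 to 7.07 on the other 5 tumours, with 5.82 to 6.97 in wild type (difference 1.64, adjusted p = 0.72, limma). The macrophage list scored 0.25 on T9 and 0.37 on T10, the highest of the 11 arrays, against -0.15 to 0.09 on the other tumours. Mrc1 is itself 1 of the 13 measured members averaged in that score, so the score is not separate support. Both arrays are among the 3 with the lowest AUC. Scgb2b27, a secretoglobin, was 10.47 on T12 and 10.44 on T14 and 5.07 to 5.78 on the other tumours, with 5.39 to 5.80 in wild type. The same arrays had the highest urothelium scores, 0.40 on T12 and 0.64 on T14, where the other tumours had -0.27 to -0.02.

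Fxyd3, a regulator of the sodium pump, ran from 9.01 to 10.71 in TRAMP above 8.97, 8.71, 7.25 and 8.12 in wild type (difference 1.44, adjusted p = 0.14, limma). It rose in late mice by 1.75 (adjusted p = 0.000436), in SPARC-null mice by 1.6 (adjusted p = 0.00124) and in OPN-null mice by 1.67 (adjusted p = 0.00942, limma). Pfkfb3, a regulator of glycolysis, had 5.88 to 6.93 in TRAMP and 8.25, 8.70, 6.67 and 8.99 in wild type, a difference of -1.74 (adjusted p = 0.14, limma), where B11 lay within the tumour range.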
